A study of Mus musculus with 2 samples.

Results

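Vegfa, the mouse gene of vascular endothelial growth factor A, was described across the cell classes of tumours grown from B16F10 cells, a transplantable pigmented melanoma line of C57BL/6 mice. It is 1 of 24510 genes in the count table, selected on its measured levels in NK cells, neutrophils and Arg1-high macrophages, so these levels are given as a description with no test. The tumours had grown in female C57BL/6 mice from Tyr knockout, Oca2 knockout or WT B16F10 cells, with 3 mice for each of the 3 tumour genotypes. The labels used here give neither the age of the mice nor any allele of the host beyond the strain, and say nothing of whether each knockout is 1 clone. Cells sorted for the leukocyte antigen CD45 received 1 sample tag per genotype and went through 1 capture and 1 whole transcriptome library. No label ties tag 8, 9 or 10 to a genotype, so the tags stand for 3 pools of unnamed genotype, cells of the 3 mice cannot be told apart, and no comparison of genotypes was made.

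Of 13090 cells with a single tag, 10491 showed 200 genes or more and held no more than 25% of their molecules in mitochondrial genes, with 3336, 3486 and 3669 cells in tags 8, 9 and 10. Their median depth was 3224.5, 3670.0 and 3565 molecules per cell. Cells were put into classes by the number of molecules of marker genes, none of which was Vegfa, and 6343 cells passed the gate of 1 class, 101 passed more than 1 and 4047 passed none. The kept cells held 23690 Vegfa molecules, a level of 372 CPM (counts scaled so that the total of a class is 1000000), and the level of all kept cells was 383 CPM in tag 8, 333 CPM in tag 9 and 397 CPM in tag 10.

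VEGF-A is a secreted growth factor that drives the sprouting and the permeability of blood vessels, chiefly through the receptor VEGFR2, which Kdr encodes. Its gene is a classic target of hypoxia-inducible factors, which the prolyl hydroxylases and the VHL protein keep low while oxygen is plentiful. In tumours it is known to come from the tumour cells and from myeloid cells, above all macrophages, and NK cells have been described as a further source.

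Vegfa (ENSMUSG00000023951.17) lies at chr17:46016993-46032369 on the minus strand of GRCm38, in GENCODE vM21, with 13 annotated transcripts of which 8 are protein-coding. The molecules were counted per gene, so the level sums over these transcripts. The bases before its start are shown because Vegfa is set beside other hypoxia target genes in the results. The 250 bases before the RefSeq start (GRCm38.p6, chr17:46032378-46032627, minus strand, 5′ to 3′) hold GGGCGG, the GC box that zinc finger factors of the Sp family bind, which capitals mark.

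Vegfa promoter: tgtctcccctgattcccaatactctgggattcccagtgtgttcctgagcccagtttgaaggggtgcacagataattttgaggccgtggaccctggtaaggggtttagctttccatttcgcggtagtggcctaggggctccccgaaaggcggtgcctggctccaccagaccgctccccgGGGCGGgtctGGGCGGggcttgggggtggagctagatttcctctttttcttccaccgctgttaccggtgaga

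The window held 2 matches to GGGCGG, read on both strands, and 32.7% of the 32817 RefSeq windows of the same length held at least 1. It held 0 matches to ACGTG or GCGTG, the core letters of hypoxia response elements, on either strand, while 38.6% of all windows held one of them. None of the GC boxes overlaps another motif. This says only that those letters are not in these 250 bases.

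The level of Vegfa was highest in Arg1-high macrophages, myeloid cells with at least 10 molecules of the arginase gene Arg1 and few C1q molecules. They had 1027, 911 and 1179.9 CPM in tags 8, 9 and 10 (302 cells). Neutrophils, gated on Csf3r, Cxcr2, Retnlg, Hdc and the S100a8 and S100a9 pair, had 768, 761 and 752 CPM (578 cells). NK cells were gated on Ncr1 and killer cell lectin-like receptors, with no molecule of CD8 or of the T cell marker set. That set left out Trbc1 and Trbc2, T cell receptor genes that NK cells hold. NK cells had 712, 767 and 745 CPM (540 cells). This order depends on the scaling, since with TMM factors neutrophils had 1467 CPM and Arg1-high macrophages 1325 CPM at the median of the tags. Without them the tags of Arg1-high macrophages lay above those of the neutrophils, and the tags of neutrophils and NK cells overlapped. Within a tag the NK level was 0.927 to 1.01 times the neutrophil level, and 0.362 to 0.462 times with TMM factors.

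Eosinophils followed with 684, 559 and 584 CPM (354 cells), just below the tags of the NK cells, although the Poisson interval of tag 8, 545 to 848 CPM, reached across them. C1q macrophages, the most numerous class with 1323 cells, had 471, 462 and 475 CPM. Monocytes had 399, 318 and 369 CPM, and type 2 dendritic cells, the Cd209a-expressing dendritic cells, had 275, 338 and 321 CPM. The tags of the last pair overlapped each other and lay below those of the C1q macrophages.

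The 100 cells with at least 20 melanocyte molecules (Pmel, Mlana, Tyrp1 and Dct) had 175, 264 and 184 CPM, lower than the myeloid classes named so far in every tag. They had come through a CD45 sort, and 41.0% of them held a molecule of Ptprc, the gene of CD45, so they need not represent the melanoma cells of the tumours.

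Lymphocytes other than NK cells lay lower still. Gamma-delta T cells had 166, 88.3 and 124 CPM, regulatory T cells had 95.01, 84.7 and 70.0 CPM, B cells had 68.6, 81.2 and 67.8 CPM and conventional CD4 T cells had 18.1, 32.0 and 65.1 CPM. CD8 T cells, the largest lymphocyte class with 753 cells, had 27.7, 20.4 and 41.2 CPM. In all 3 tags the NK level lay above that of every other lymphocyte class.

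Among the remaining dendritic cells, CCR7 dendritic cells varied most between tags, with 85.2, 42.9 and 170.0 CPM. Plasmacytoid dendritic cells had 19.7, 36.0 and 48.1 CPM and type 1 dendritic cells had 19.8, 47.6 and 19.9 CPM. Neighbours in the order from gamma-delta T cells through CCR7 dendritic cells and regulatory T cells to B cells overlapped, and so did those from plasmacytoid dendritic cells through conventional CD4 and CD8 T cells to type 1 dendritic cells. Mast cells and fibroblasts had under 20 cells in every tag and were not ranked. The 33 mast cells held 90 Vegfa molecules (437 CPM, exact Poisson 95% interval 351 to 537). The 31 fibroblasts had 244, 161 and 739.9 CPM, and in tag 10 a single cell held 136 of the 187 Vegfa molecules.

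**Figure D1:**
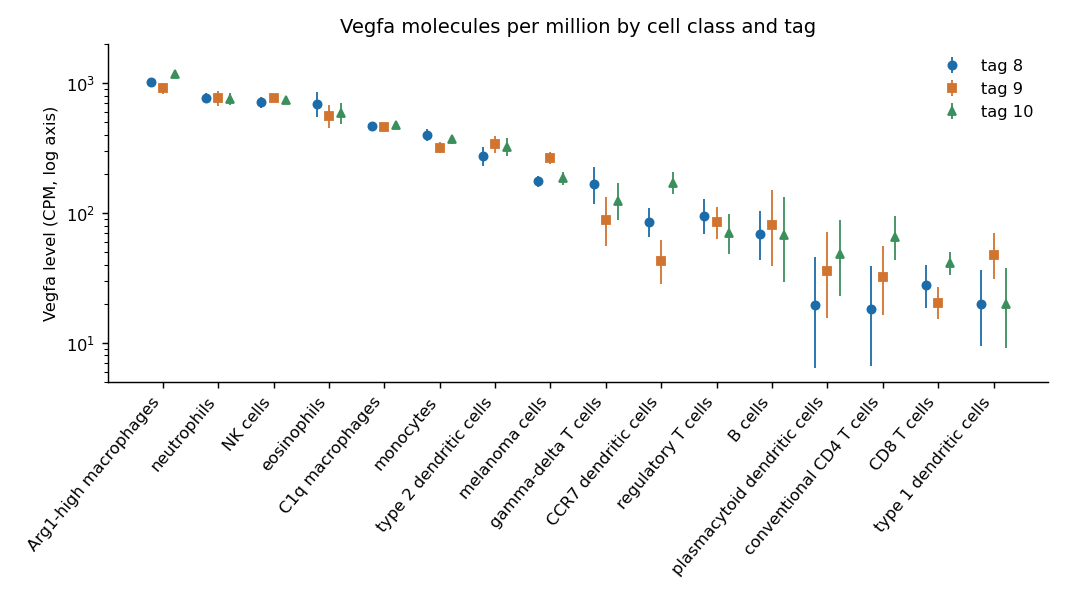
Vegfa level in CPM on a log axis for 16 cell classes, ordered by the median of the tags. Points are tags 8, 9 and 10 and bars are exact Poisson 95% intervals. Arg1-high macrophages, neutrophils and NK cells sit between 712 and 1179.9 CPM, and CD8 T cells between 20.4 and 41.2 CPM.

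The classes differ in number and in depth, so the share of all Vegfa molecules follows another order. C1q macrophages made up 12.6% of the kept cells and held 29.7% of the Vegfa molecules. Arg1-high macrophages held 10.5% of the molecules in 2.88% of the cells, NK cells 7.76% in 5.15%, monocytes 5.81% in 5.73%, neutrophils 4.62% in 5.51% and melanoma cells 4.35% in 0.953%. The CD8 T cells, 7.18% of the cells, held 0.751% of the molecules. Cells outside every gate were shallow, with a median of 2214 molecules, and held 27.3% of the Vegfa molecules in 38.6% of the cells. Their level was 446 CPM in tag 8, 385 CPM in tag 9 and 483 CPM in tag 10. The CD45 sort and the mitochondrial limit set these shares in part. That limit took out 26.2% of tag 8, 17.4% of tag 9 and 14.9% of tag 10.

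At least 1 Vegfa molecule was found in 412 of 540 NK cells (76.3%, exact Clopper-Pearson 95% interval 72.5 to 79.8), with a median depth of 3463 molecules. It was found in 89 of 753 CD8 T cells (11.8%, 9.60 to 14.3), which were deeper, with a median of 5097 molecules. B cells, taken as a class of low expression, had a share of 9.47% (6.09 to 13.9) at a median depth of 2225, and plasmacytoid dendritic cells had 11.8% (6.76 to 18.7) at 5441. The CD8 share lay within the intervals of both. No level of free RNA was estimated, so whether the molecules in CD8 T cells are background was not tested. The intervals cover counting error only, since cells of 1 capture are not replicates.

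With every cell thinned to 1000 molecules, 247 of 539 NK cells held Vegfa (45.8%, 41.6 to 50.1), and 1 shallower NK cell was left out. The thinned share was 57.9% in Arg1-high macrophages, 38.1% in neutrophils, 31.2% in C1q macrophages and 31.1% in eosinophils. It was 3.33% in CD8 T cells, 4.56% in B cells and 4.76% in plasmacytoid dendritic cells. Thinning left out 42 of 354 eosinophils and 11 of 578 neutrophils. Unthinned, 92.1% of Arg1-high macrophages, 54.0% of neutrophils, 63.5% of C1q macrophages and 35.3% of eosinophils held a molecule. Only Arg1-high macrophages had a higher thinned share than NK cells among the 16 ranked classes, and unthinned the 77.0% of the deep melanoma cells was also above it.

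**Figure D2:**
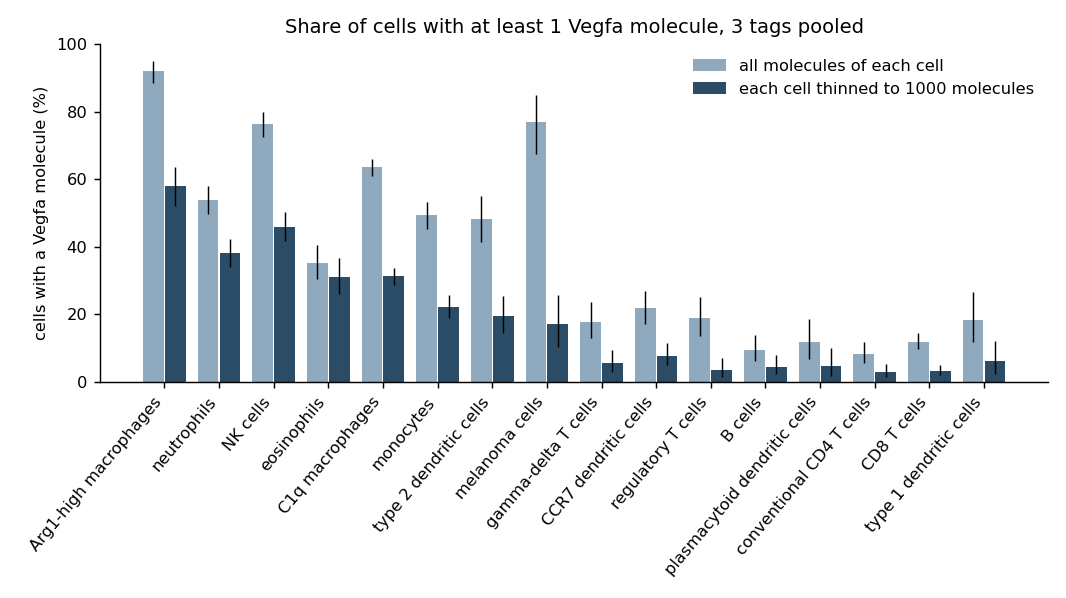
Share of cells with at least 1 Vegfa molecule in each class, 3 tags pooled, in the order of the levels. Pale bars use all molecules of a cell, dark bars each cell thinned to 1000 molecules, and lines are exact Clopper-Pearson 95% intervals. The NK share is 76.3% unthinned and 45.8% thinned, and the CD8 share 11.8% and 3.33%.

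Vegfa was spread over most NK cells and Arg1-high macrophages and less evenly over C1q macrophages. A median of 2 molecules was counted per NK cell, 32.0% of NK cells held 2 to 4 molecules, 23.9% held 5 to 9 and 5.56% held 10 or more. The 54 NK cells with most Vegfa held 33.6% of the class's molecules. In C1q macrophages 36.5% of the cells held none and 20.1% held 10 or more, and the 132 highest cells held 45.8% of the molecules. Among Arg1-high macrophages 7.95% held none and 31.8% held 10 or more, and the 30 highest cells held 30.8% of the molecules. In CD8 T cells the 75 highest of 753 cells held 92.1% of the molecules, and a single cell reached 15.

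**Figure D3:**
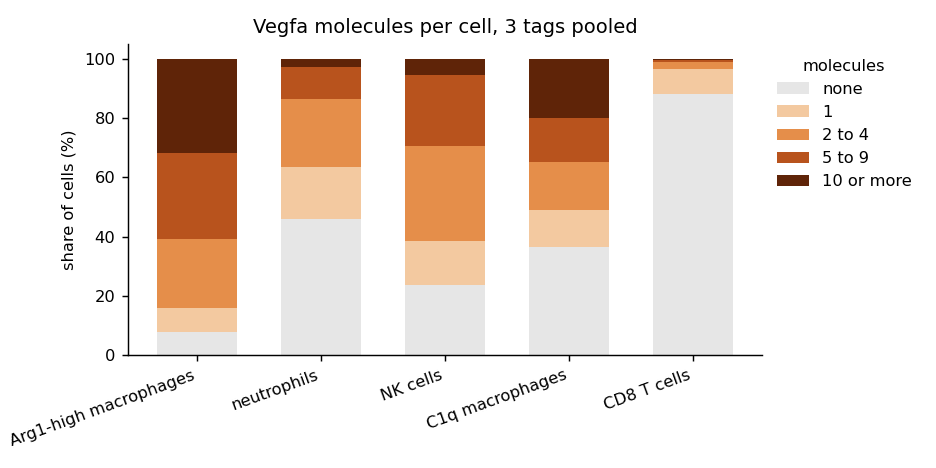
Share of cells by the number of Vegfa molecules counted in them, for 5 classes with 3 tags pooled. No molecule was counted in 7.95% of Arg1-high macrophages, 46.0% of neutrophils, 23.7% of NK cells, 36.5% of C1q macrophages and 88.2% of CD8 T cells.

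NK cells exceeded CD8 T cells of the same tag by log2 ratios of 4.69, 5.23 and 4.18, which is 25.7-fold at the median of the tags and 18.1-fold to 37.5-fold over them. The NK gate allowed at most 4 S100a8 or S100a9 and at most 2 C1q molecules in a cell, and the CD8 gate the same, so these markers are low in both partly by the choice of cells. S100a8 and S100a9 together were at 14.3 to 23.3 CPM in NK cells and 8.65 to 14.8 CPM in CD8 T cells, while neutrophils had 12870 to 18255 CPM. The 3 C1q genes were at 27.6 to 31.5 CPM in NK cells and 18.1 to 22.7 CPM in CD8 T cells, and the 4 melanoma genes at 41.9 to 55.0 CPM in NK cells and 31.8 to 49.4 CPM in CD8 T cells. The melanoma genes were not limited in these gates.

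Lyz2 and Arg1, the genes that define Arg1-high macrophages, were not limited either. Lyz2, a lysozyme gene of phagocytes, was at 88.8 to 145 CPM in NK cells (a molecule in 24.4% of them) and 47.2 to 254 CPM in CD8 T cells (28.0%), and Arg1 at 15.9 to 22.2 CPM in NK cells and 12.2 to 43.3 CPM in CD8 T cells. The 396 NK cells with neither Lyz2 nor Arg1 had 713, 826 and 794 CPM of Vegfa.

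The 6 endothelial genes together were at 93.1 to 133 CPM in NK cells and 15.1 to 30.6 CPM in CD8 T cells. Of their 258 molecules in NK cells 254 were of Pecam1, an adhesion molecule gene that leukocytes also express, while Cdh5, Tie1 and Emcn were at 0 and Kdr and Egfl7 had 2 each. The 395 NK cells without any of these molecules had 716, 794 and 796 CPM of Vegfa. Without every cell that held a neutrophil, C1q or melanoma molecule, the NK level was 814 CPM at the median of the tags and the log2 ratio over CD8 T cells 4.83. Among genes that no gate used, Eomes, a transcription factor of NK and memory T cells, had a molecule in 72.8% of NK cells and 42.0% of CD8 T cells. Gzma, the gene of granzyme A, had one in 82.2% of NK cells and 18.9% of CD8 T cells. Nkg7 did not tell these classes apart, with one in 90.6% of NK cells and 91.6% of CD8 T cells. The integrin gene Itga2 had one in only 26.9% of NK cells and in 2.66% of CD8 T cells. Cxcr4 had one in 70.9% of NK cells, 55.6% of CD8 T cells and 50.9% of neutrophils. Ptprc had one in 98.7% of NK cells, 98.3% of CD8 T cells and 78.2% of neutrophils. Il1r2, the gene of a decoy receptor for interleukin 1, had one in 96.0% of neutrophils and 27.4% of C1q macrophages, but also in 74.1% of type 2 dendritic cells and 51.0% of regulatory T cells, so it does not mark neutrophils alone.

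Within NK cells the level was compared across cells with and without subset genes. Cells with Itga2, an integrin of conventional NK cells, had 446, 673 and 602 CPM (145 cells), and cells without a molecule of it had 851, 810 and 807 CPM (395 cells). Cells with Tnfsf10, the gene of the death ligand TRAIL, had 517, 366 and 697 CPM (53 cells), and those without had 762, 869 and 753 CPM (487 cells). Vegfa was lower on the positive side of both genes in every tag. The median depth was 3905 molecules with Itga2 and 3373 without, and 7065 with Tnfsf10 and 3367 without, and the part of depth in these differences was not tested. For Eomes the sides had no common order, with 678, 796 and 717 CPM in positive cells and 859, 678 and 825 CPM in negative cells. Of NK cells, 39 held Itga1 and 8 held Cxcr6, integrin and chemokine receptor genes of tissue-resident innate lymphocytes, which leaves those sides thin.

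Within neutrophils, cells with and without Tnfrsf23, Clec5a, Cd14 or Cxcr2 had no common order over the tags. Cells with Tnfrsf23, a decoy receptor gene, had 1020.2, 633 and 659.6 CPM (183 cells), and those without had 649.6, 833 and 825 CPM (395 cells), so only tag 8 was higher on the positive side. Among C1q macrophages, cells with at least 2 molecules of the resident-type genes Folr2, Cd163 and Cbr2 had 386, 384 and 459 CPM (509 cells). Those with none had 588, 481 and 469.7 CPM (644 cells). The groups did not overlap over tags, but their Poisson intervals in tag 10, 436 to 483 and 443 to 498 CPM, did. The positive cells were deeper, with medians of 12922 and 8541 molecules.

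Other ligands of the VEGF family did not follow Vegfa. Vegfb, whose product binds VEGFR1, had its highest level in melanoma cells, at 155, 122 and 144 CPM, and was at 3.71, 13.3 and 6.35 CPM in NK cells. Vegfc, the lymphatic growth factor gene, was rare, with 21 molecules in NK cells (11.1, 8.17 and 7.40 CPM) and 44 in melanoma cells (8.63, 11.2 and 6.57 CPM). No Vegfc molecule was counted in CD8 T cells. Pgf, the gene of placental growth factor, had 114, 125 and 22.4 CPM in type 2 dendritic cells and 3 molecules in NK cells. Vegfd had 9 molecules over the 16 ranked classes.

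The receptors were sparse in NK cells, with 1 molecule of Flt1, 2 of Kdr and 1 of Flt4, the genes of VEGFR1, VEGFR2 and VEGFR3. The co-receptor genes Nrp1 and Nrp2 had 24 and 13 molecules in NK cells. Against CD8 T cells both neuropilins were lower, Nrp1 by log2 ratios of -3.21, -2.85 and -1.72 and Nrp2 by -1.90, -1.40 and -1.31. A gene counts as called where all 3 tags put the CPM ratio at 2-fold or beyond on the same side, provided that both classes together held 30 molecules of it or more. Of 9703 genes compared between NK and CD8 T cells, 3.41% were called higher and 3.41% lower. Flt1 was highest in monocytes, with 17.8 to 44.3 CPM, and Kdr in CCR7 dendritic cells, with 47.5 to 103 CPM. The endothelial genes together, Kdr among them, were at 50.6 to 436 CPM in CCR7 dendritic cells, in 15.1% of the cells. The gate of that class did not limit them, and whether Kdr there comes from endothelial cells was not tested. Nrp1 was highest in C1q macrophages, at 99.0 to 140.5 CPM, and Nrp2 in CCR7 dendritic cells, at 218 to 358 CPM.

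Of the 8 regulators of the hypoxia-inducible factors that could be compared between NK and CD8 T cells, 0 were called higher and 1 lower. Over all genes compared, 3.41% were called in each direction. Epas1, the gene of HIF-2 alpha, was lower in NK cells by log2 ratios of -2.00, -3.79 and -1.79. Hif1a, the gene of HIF-1 alpha, had log2 ratios of -0.79, -1.46 and -1.13 and was not called. Its median level over tags was 102 CPM in NK cells.

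Of 33 fixed hypoxia target genes other than Vegfa, 29 could be compared between NK and CD8 T cells, and 0 were called in either direction. Over all 9703 genes compared, 3.41% were called in each direction, so a count of 0 among 29 is near that share. The hypoxia targets had a median log2 ratio of -0.34, beside -0.09 over all genes compared. The median log2 ratio was -0.74 for Pgk1 and -0.86 for Gapdh, both glycolytic enzymes, 0.32 for the glucose transporter gene Slc2a1, and 0.13 for Hilpda, which encodes a lipid droplet protein. The lowest of the list was the lactate exporter gene Slc16a3, at -1.59 with a range of -1.90 to -0.37. The highest was Ddit4, a stress-induced inhibitor of mTOR signalling, at 0.84 with a range of 0.69 to 0.95. Vegfa at 4.69 stood outside the values of the list, which ran up to that of Ddit4. With the calls resting on 2 of the tags, 2 were called lower without tag 8, 1 without tag 9 and 2 without tag 10, and 0 higher each time. The share of all genes called on 2 tags was not computed.

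Neutrophils exceeded C1q macrophages in Vegfa by log2 ratios of 0.71, 0.72 and 0.66, under the 2-fold threshold, and the median of all genes compared was -0.61. Of the 33 hypoxia targets, 4 were called higher and 0 lower, beside 7.08% higher and 23.5% lower of 10427 genes, and their median was 0.09. The 4 were Egln3, a prolyl hydroxylase gene that oxygen shortage itself induces, at 2.99, Slc16a3, a lactate exporter gene, at 1.87, Hilpda at 1.41 and Ero1l, an oxidase of the endoplasmic reticulum, at 1.16. With TMM factors, which shift neutrophils upwards, 12 were called higher and the Vegfa ratio was 1.43 (1.32 to 1.62). The share of all genes called with these factors was not computed.

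Arg1-high macrophages exceeded C1q macrophages by 1.13, 0.98 and 1.31, so Vegfa passed 2-fold in tags 8 and 10 and was just short of it in tag 9. Of the 33 hypoxia targets, 7 were called higher and 0 lower, beside 0.952% higher and 1.97% lower of 10402 genes. Their median was 0.96, beside -0.18 over all genes. Those called were Egln3 at 2.49, Ero1l at 1.85, the vasodilator peptide gene Adm at 1.80, Ankrd37 at 1.72, the mitophagy receptor gene Bnip3 at 1.66, Fam162a at 1.32 and Pgk1 at 1.09. Without tag 9, 12 were called higher, but then only 2 tags had to agree and the share over all genes was not computed. Egln1, the main oxygen sensor of the HIF pathway, was also called higher, at 1.40.

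**Figure D4:**
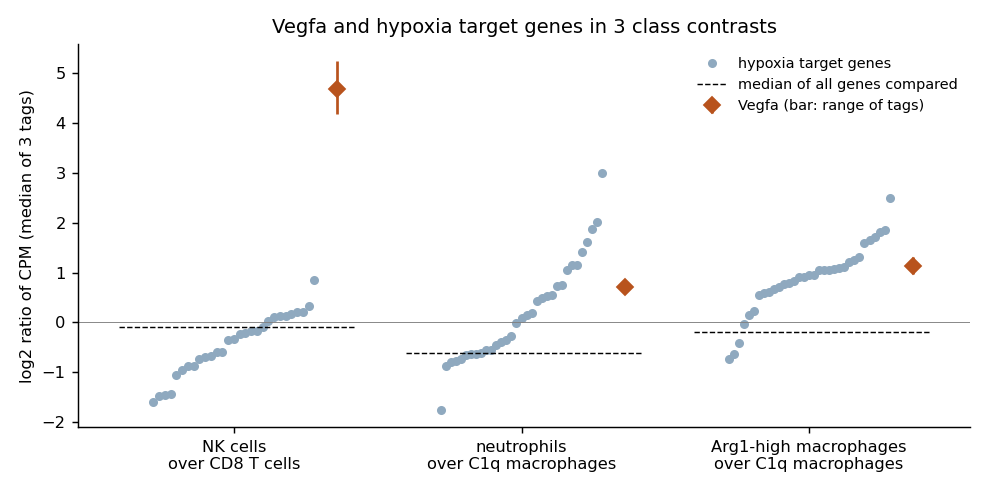
Log2 ratios of CPM in 3 class contrasts, as the median of the tags. Grey-blue points are hypoxia target genes in rising order, the diamond is Vegfa with the range of the tags, and the dashed line is the median of all genes compared. Vegfa is at 4.69, 0.71 and 1.13 in the contrasts from left to right, and in NK over CD8 T cells it stands above every hypoxia target.

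Cells of a class and tag were next cut into 3 equal ranges by the share of their molecules in the hypoxia target list, which does not hold Vegfa, in classes with at least 100 cells in every tag. In C1q macrophages the high range had 799.6, 744 and 748 CPM of Vegfa in tags 8, 9 and 10, and the low range had 248, 209.7 and 226 CPM. The log2 ratio of high to low was 1.73 at the median, with a range of 1.69 to 1.83, and the middle range lay between them in every tag. The cells of the high range spent 1.31% to 1.47% of their molecules on the list at the median, those of the low range 0.376% to 0.396%. In monocytes the ratio was 0.51 (0.37 to 1.05).

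In neutrophils the order depended on the tag, with 1022, 798 and 861 CPM in the high range, against 521, 967 and 598 CPM in the low range. The log2 ratio was 0.53, from -0.28 in tag 9 to 0.97 in tag 8. Without the glycolytic enzymes in the list the high range of neutrophils was above the low one in all 3 tags, with a ratio of 0.21 (0.12 to 0.49). The Poisson intervals of these ranges overlapped in tags 9 and 10. The middle range, at 605, 636 and 814 CPM, was the lowest in tags 8 and 9 and the highest in tag 10. NK cells went the other way in tags 9 and 10. Their high range had 710.4, 547 and 571 CPM and their low range 644, 1144 and 883 CPM, with a log2 ratio of -0.63 at the median and a range of -1.07 to 0.14. The list took 0.570% to 0.599% of the molecules of NK cells in the high range, less than in the high range of C1q macrophages. Without the glycolytic enzymes the NK ratio was 0.14 (-0.30 to 0.29), so its sign depends on them. The high range of NK cells was deeper than the low range, with medians of 3518 to 4802 and 2772 to 3098.5 molecules, and the part of depth was not tested. Of the cells, 33.3% of NK cells and 22.6% of C1q macrophages lay within 10% of a boundary between ranges. The median NK cell of the high range held 0 C1q, 0 S100a8 or S100a9 and 0 melanoma molecules. Any such molecule was found in only 11.7%, 6.48% and 15.0% of all NK cells, so this median says little about the high range.

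**Figure D5:**
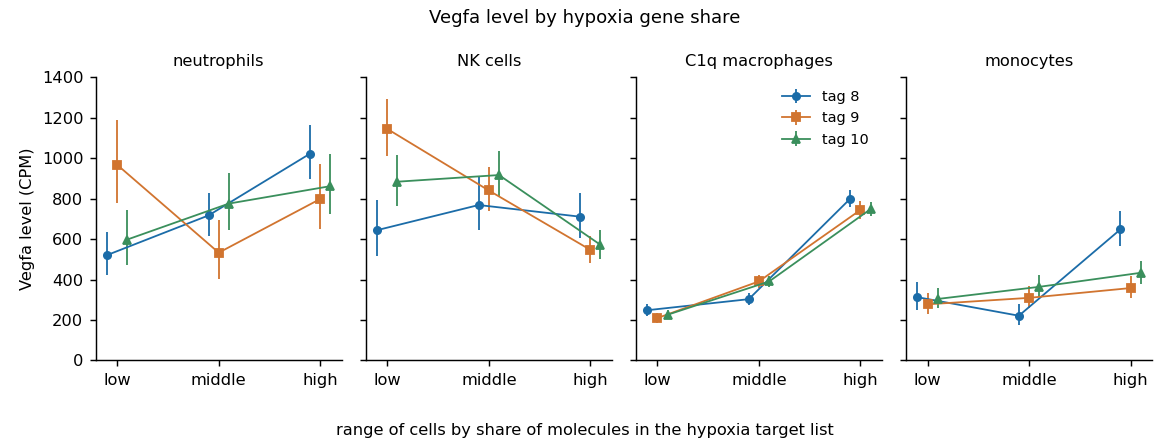
Vegfa level in CPM in cells with a low, middle or high share of molecules in the hypoxia target list, for neutrophils, NK cells, C1q macrophages and monocytes. Points are tags and bars exact Poisson 95% intervals. In C1q macrophages the 3 tags lie between 744 and 799.6 CPM in the high range and between 209.7 and 248 CPM in the low range, while NK cells lie between 547 and 710.4 CPM in the high range.

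Of 12 other angiogenic factors compared with CD8 T cells, 3 were called higher in NK cells and 0 lower. Over all genes compared, 3.41% were called in each direction. The median log2 ratio of the factors was 0.86, beside -0.09 over all genes. Pdgfa, a platelet-derived growth factor gene, had 92.7, 99.0 and 82.5 CPM in NK cells and 0.988, 5.90 and 8.82 CPM in CD8 T cells. Pdgfb was called higher by 1.85, 2.51 and 1.58. Angpt1, whose product stabilises vessels through the receptor Tie2, had 34 molecules in NK cells and 0 in CD8 T cells, so its log2 ratio was at least 2.91 to 3.45 against a floor of 3 counts per tag. Thbs1, the gene of the vessel inhibitor thrombospondin 1, had a median of 8304 CPM in Arg1-high macrophages, 5101 in neutrophils, 2368 in C1q macrophages and 86.8 in NK cells. Mmp9, a matrix protease gene, had 1121 CPM in neutrophils, 37.0 in Arg1-high macrophages and 1.02 in NK cells.

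Of 16 such factors, 14 could be compared in the myeloid contrasts. In neutrophils over C1q macrophages Mmp9, Plaur and Il1b were called higher and Pdgfa, Pdgfb, Areg and Plau lower, beside 7.08% higher and 23.5% lower of all genes compared. The median of the factors was 0.24, beside -0.61 over all genes. In Arg1-high over C1q macrophages Thbs1, Mmp9 and Spp1 were called higher and none lower, beside 0.952% and 1.97%, with a median of 0.31 beside -0.18. Of 10 genes known to regulate Vegfa transcription or the stability of its mRNA, 1 was called higher in NK over CD8 T cells. None was called lower, and over all genes compared 3.41% were called in each direction. The gene called was Cebpb, a leucine zipper transcription factor, at 1.42 (1.26 to 1.48). Zfp36 and Zfp36l1, whose products destabilise mRNAs with AU-rich elements, were at 0.99 (0.98 to 1.11) and 0.99 (0.87 to 1.02) and were not called. In neutrophils over C1q macrophages 2 of the 10 were called higher and 1 lower, beside 7.08% and 23.5% of all genes. Cebpb was among those higher, at 1.96, and Ahr, the aryl hydrocarbon receptor gene, was the 1 lower, at -3.56. The contrasts with C1q macrophages share those cells.

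Over the sums of 16 classes in 3 tags, 48 points, the genes most like Vegfa by Pearson correlation of log2(CPM + 10) were Ninj1 (0.813), Itgam (0.808), Sqstm1 (0.806), Card19 (0.795), Fcgr3 (0.778), Srxn1 (0.774), Ptpn12 (0.773) and Rabgef1 (0.773), out of 9900 candidates. The median over candidates was -0.196. The points share a library and each class enters with 3 tags, so the correlation was also taken over 16 class means. There the 8 genes gave 0.7998 to 0.847 in place of these values. By their medians over tags, all 8 were lower in NK cells than in Arg1-high macrophages, neutrophils, eosinophils and C1q macrophages. Ninj1 had a median of 584 CPM in neutrophils, 315 in Arg1-high macrophages and 46.3 in NK cells, and Itgam, the gene of CD11b, had 1693 CPM in Arg1-high macrophages and 126 in NK cells. Sqstm1, the gene of the autophagy receptor p62, came nearest, with 1205 CPM in Arg1-high macrophages, 1109 in neutrophils, 883 in NK cells and 396 in CD8 T cells. Among the listed genes the highest were Slc2a1 (0.727), Thbs1 (0.726), Osm (0.722), Hbegf (0.716) and Cebpb (0.706). The 33 hypoxia targets had a median of 0.306 and the 13 other angiogenic factors with enough molecules 0.580.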

How the data were processed

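Immune cells from 3 pools of tumours were profiled by single-cell whole transcriptome sequencing, with sample tags. Per the file headers, version 1.9.1 of BD's WTA Multiplex Rhapsody pipeline gave the authors' counts of molecules and the tag call of each cell, on GRCm38 with GENCODE vM19. GRCm39 stands in the submitters' processing notes instead; the header's build was taken. The deposited counts are whole numbers, for 14899 cells and 24510 genes. Coordinates are from GENCODE vM21 on GRCm38, and promoter windows from RefSeq.

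A single tag, 200 genes or more and no more than 25% mitochondrial molecules were required of a cell. Doublets were treated only through the multiplet tag calls and the cells passing several gates, which were left out, and no caller was run. Gates used molecule counts of marker genes. A limit of 4 collagen molecules on B cells, because Ebf1 also marks fibroblasts, a fibroblast gate, and the loss of a limit on T cell molecules in the melanoma gate were set after the levels had been seen. Trbc1 and Trbc2 were not used, since NK cells hold them. Molecules were summed per class and tag and scaled to CPM, with exact Poisson and Clopper-Pearson 95% intervals and a floor of 3 counts. Thinning drew 1000 molecules per cell. The contrast rule was tested on simulated data. No p-value was computed, since each unnamed genotype has 1 tag.

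Vegfa, the gene lists and the comparisons were chosen with earlier results of these data known. The text names Vegfa, members of the lists, gate and subset markers, and the 8 genes most like Vegfa among those with at least 300 molecules that are no gate marker, over classes with at least 20 cells in every tag. Eomes, Gzma, Il1r2, Itga2, Nkg7, Cxcr4 and Ptprc were used to check labels. The split of neutrophils by 1 further subset marker is not reported here. The work used Python 3.11.15 with pandas 2.3.3, numpy 2.4.6, matplotlib 3.10.9 and scipy 1.17.1. TMM factors came from edgeR 4.0.16 in R 4.3.3. Other scalings, filters, gates, depths and sets of tags were tried as alternatives.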

Additional observations from a re-analysis of the deposited data

Results flagged for a closer look

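Vegfa was also counted in cells that the comparisons did not use. The 1271 cells that passed the filters with a multiplet tag call had 375 CPM (exact Poisson 95% interval 363 to 387), and the 175 with an undetermined tag had 263 CPM (247 to 279). These cells hold no single pool, so their classes were not described. Groups of 3 tags are too few to look for a sample that stands apart.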

How the results depend on the processing

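The log2 ratio of NK over CD8 T cells stayed between 4.42 and 4.83 under the other scalings, filters, depths and gates tried, and between 4.43 and 4.96 with 1 tag left out. With 1 tag left out the median level was 728 to 756 CPM in NK cells and 757 to 765 CPM in neutrophils. Alternatives that moved a level by more than the SD over tags gave the following medians. Totals without mitochondrial, ribosomal protein and immunoglobulin genes gave 915 CPM in NK cells and 812 CPM in neutrophils, the mean over cells gave 834 and 771 CPM, and TMM factors gave 643 and 1467 CPM. With TMM factors neutrophils stood above Arg1-high macrophages, and NK cells were at 0.451 of the neutrophil level. Leaving out cells with markers of other sources gave 814 CPM in NK cells and 811 CPM in neutrophils, and leaving out the deepest 5% gave 810.2 and 795 CPM. Thinning gave 846 CPM and marker minima 1 molecule lower gave 787 CPM in NK cells. In neutrophils, doubled minima gave 719 CPM, at least 500 genes 752 CPM and no filter 749 CPM. The median share of cells over tags was 46.2% thinned against 77.1% unthinned in NK cells, and 38.7% against 54.5% in neutrophils.

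The log2 ratio by hypoxia share without the glycolytic enzymes turned round to 0.14 in NK cells and was 2.07 in C1q macrophages (1.73 with them), 0.78 in monocytes and 0.21 in neutrophils. In CD8 T cells it was 1.73 (-0.33 to 2.04), against 0.65 (0.24 to 2.20) with them, on low ranges of 3 to 39 Vegfa molecules. Hypoxia targets called at 3-fold were 2 higher in neutrophils and 2 higher in Arg1-high macrophages over C1q macrophages. At 2-fold with TMM factors 12 were higher in neutrophils. With 1 tag left out, 1 to 2 were lower in NK over CD8 T cells, 0 to 1 lower and 5 to 6 higher in neutrophils, and 8 to 12 higher in Arg1-high macrophages. The share of all genes called was not computed under these alternatives, so their counts have no background beside them. Of 210 values in 14 other classes 29 moved by more than the SD over tags, and the cause was not tested. Eosinophils, C1q macrophages, monocytes, type 2 dendritic cells and melanoma cells kept their places in the order under all 13 settings without a tag left out. NK cells without endothelial molecules had 794.2 CPM and those without Lyz2 or Arg1 794.0 CPM. With the gates as first written, like these chosen after seeing the data, B cells had 129.9 CPM and conventional CD4 T cells 59.8 CPM. Class ratios were taken within each tag. Each ratio thus compares classes of the same tag, and no test was run to which a block could be added. Depth limits the low classes, where 1 tag held as few as 5 Vegfa molecules.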
